A study of Mus musculus with 32 samples.

Results

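Lin28a, Lin28b, Trim71, Hmga1, Hmga2, Igf2bp1, Igf2bp2 and Igf2bp3 are genes whose transcripts are abundant in the early mouse embryo and decline as development proceeds, so their levels can be read as a check of whether groups of embryos were at the same stage. They were chosen by name and found by Ensembl identifier in the expression tables, where all 8 were present among 48576 gene identifiers. The rule uses no measured value, although the list was drawn up with earlier results of these data known. All 8 stood well above the minimum level set for testing in every library.

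The study asked how type II cadherins, a family of cell adhesion molecules, shape the early neural tube of the mouse, and RNA was sequenced from dissected forebrain (Fb) and midbrain (Mb) of E9.5 embryos on the hybrid strain background B6C3F1. Each tissue had 6 wild type (WT) libraries, 4 from Cdh6, Cdh8 and Cdh11 triple knockouts (TKO_Ex), 3 from a double knockout (DKO) group with exencephaly, an open cranial neural tube (DKO_Ex), and 3 from a DKO group with a milder cranial defect (DKO_CD), which made 32 libraries. The records give the DKO_Ex genotype as a loss of Cdh8 and Cdh11 and the DKO_CD genotype as a loss of Cdh6 and Cdh8, whereas the methods of the study describe both DKO groups as Cdh8/11 mutants. WT embryos came from WT matings and mutants from matings of mice heterozygous at all 3 cadherin genes, so WT and mutant embryos were not littermates, while mutant groups may share litters, and only embryos within a narrow range of somite numbers were dissected.

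The mutant alleles were small deletions at the start codons made with CRISPR/Cas9, which need not remove the transcript. Cdh8 and Cdh11 lie on chromosome 8 and Cdh6 on chromosome 15, and none of the 8 genes lies on either. For 12 DKO libraries the column heading inside the file named the other DKO group than the sample record did. The headings were followed here, and if the records are right, every DKO_Ex value below belongs to DKO_CD and every DKO_CD value to DKO_Ex. All groups were of a single stage, so the fall of these genes with time was not itself measured. Nothing in the records says which Fb and Mb libraries came from the same embryo, and p-values measure the spread between libraries.

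These genes form a well known circuit with the let-7 microRNAs. Lin28a and Lin28b are RNA-binding proteins that hold back the maturation of let-7 by binding a GGAG stretch in the loop of its precursor hairpins. Mature let-7 in turn pairs through its seed with the 3′ untranslated regions of Lin28a, Lin28b, Trim71, Hmga2 and the Igf2bp genes and lowers their expression, so that in many tissues let-7 rises while these genes fall. In neural progenitors Lin28 and Hmga2 are known for keeping cells in an early, proliferative state, and the Igf2bp proteins bind mRNAs such as those of Igf2, Actb and Myc.

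The mature microRNAs are shown because the seed, bases 2 to 8 and in capitals here, is what the target transcripts are matched with. Among the let-7 and miR-98 sequences of RefSeq for the GRCm38.p6 build, 10 mature sequences shared the seed GAGGUAG and let-7j alone carried another one. The miR-125 sequences, whose family also targets Lin28, shared a seed of their own.
mmu-let-7a-5p: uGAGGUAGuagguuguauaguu
mmu-let-7d-5p: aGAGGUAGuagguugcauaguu
mmu-let-7g-5p: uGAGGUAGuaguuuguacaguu
mmu-miR-98-5p: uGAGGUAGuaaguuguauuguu
mmu-let-7j: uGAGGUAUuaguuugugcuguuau
mmu-miR-125b-5p: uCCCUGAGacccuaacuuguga

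The hairpins show the other side of the circuit, the GGAG that Lin28 proteins bind. A GGAG followed the 5p arm in 10 of the 14 let-7 and miR-98 hairpins searched, and 4 held none there. This was a search for letters, and whether each lies in the loop or is bound was not tested. In Mir7j it came 38 bases after the arm, against 15 to 27 in the other hairpins that held it. Mirlet7g, at chr9:106178840-106178927 on the plus strand, had it 27 bases after the arm (capitals), and Mirlet7b, at chr15:85707319-85707403 on the plus strand, lacked it. No microRNA was measured in these libraries.
Mirlet7g: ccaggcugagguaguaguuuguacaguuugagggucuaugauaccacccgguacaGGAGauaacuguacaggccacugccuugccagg
Mirlet7b: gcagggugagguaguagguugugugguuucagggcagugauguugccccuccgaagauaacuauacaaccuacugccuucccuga

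The complement of the let-7 seed, CTACCTC, was searched on the transcript strand of the longest annotated 3′ untranslated region of each gene (GENCODE M21). Each of the 8 genes held at least 1 match, against 9.05% of 20755 genes with such a region. Lin28b (4445 bases), Hmga2 (3014 bases), Igf2bp1 (6337 bases) and Trim71 (5512 bases) each held 4 matches and Lin28a (2775 bases) held 2, where 1.07% of all genes held 2 or more. Among regions within 20% of the same length, as many matches or more were found in 0.239% for Lin28b, 0.135% for Hmga2, 0.36% for Igf2bp1, 0.51% for Trim71 and 2.12% for Lin28a. Hmga1, Igf2bp2 and Igf2bp3 held 1 match each, which 8.13%, 12.2% and 13.4% of regions of like length also did. All of these genes but Hmga1 were named above as let-7 targets through this seed. Matches in them were thus known beforehand and are not new support for that role. A match is a run of letters and not a measured site. All 4 matches of Trim71 and 3 of the 4 in Igf2bp1 were followed by an A, whereas the only match of Hmga1 was not.

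The first match of each gene is shown with its surroundings in GRCm38, with the complement of the seed in capitals. Hmga1 lies on the plus strand and the others on the minus strand.
Lin28a, chr4:134005180-134005209: acagcctgttgaaCTACCTCatttttgccg
Lin28b, chr10:45381013-45381042: ccgggcgggaagtCTACCTCatgcaagcac
Trim71, chr9:114512463-114512492: cattgcctaagtcCTACCTCagcttaaatt
Hmga1, chr17:27563279-27563308: ctctgttcacaaaCTACCTCtggacggttg
Hmga2, chr10:120364215-120364244: cgacattcaatttCTACCTCagcatcagtt
Igf2bp1, chr11:95961769-95961798: tgtgcgaagtaaaCTACCTCaaggtgtgaa
Igf2bp2, chr16:22059464-22059493: acacaaataaaagCTACCTCaggtgttttt
Igf2bp3, chr6:49086778-49086807: catttttactcaaCTACCTCaggtattcag

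In Lin28b and Hmga2 the first match began 36 and 58 bases after the stop codon, and in Trim71 the matches lay in 2 pairs, at 166 and 262 bases and at 3591 and 3617 bases. The miR-125 complement, CTCAGGG, occurred 1 time each in Lin28a, Lin28b, Igf2bp3 and Trim71 and in 13.11% of all genes.

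**Figure D1:**
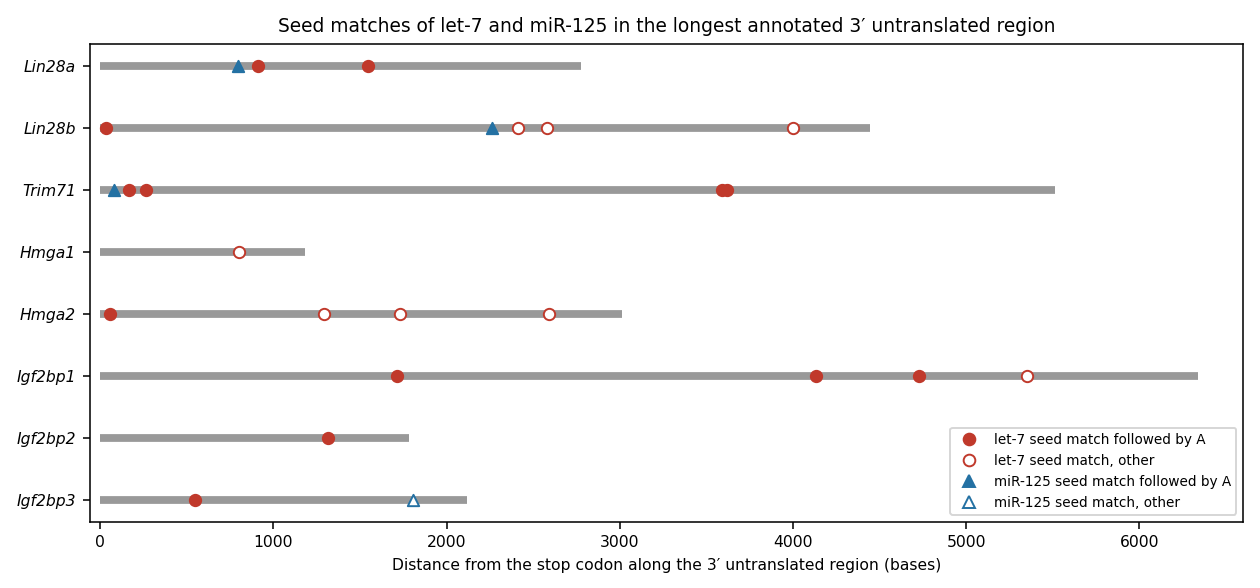
Position of let-7 (circles) and miR-125 (triangles) seed complements along the longest annotated 3′ untranslated region of each gene, in bases from the stop codon, with grey bars for the length of the region and filled symbols for matches followed by an A. Lin28b, Hmga2, Igf2bp1 and Trim71 each carry 4 let-7 matches, and Hmga1, Igf2bp2 and Igf2bp3 carry 1.

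Expression is given as FPKM, the fragments per kilobase of exon after scaling to the mapped total, which allows levels to be compared between genes. The files hold no counts, but the steps between low values placed the depth of the libraries at about 1.97 to 3.25 M fragments, with TKO_Ex Mb shallowest (1.97 to 2.32) and DKO_Ex Mb deepest (3.09 to 3.23). At that depth the estimated fragments behind a single value ran from 315 for Trim71, a counting error of 5.63%, to 6389 for Hmga1. Some libraries stood apart. In the libraries labelled TKO_Ex number 3 the Cdh6 level was 3.1 FPKM in Mb and 3.74 in Fb, within the WT ranges of 1.04 to 3.55 and 2.04 to 4, while the other TKO_Ex Mb libraries lay far below. Those were at 0.388, 0.353 and 0.345 FPKM, whereas Cdh6 was at 1.29 to 2.11 FPKM in DKO_CD Mb and 1.86 to 3.12 in DKO_Ex Mb. In Fb, Cdh6 was at 1.72 to 3.43 FPKM in DKO_CD, 3.62 to 4.34 in DKO_Ex and 0.572 to 3.74 in TKO_Ex. The genotype of the DKO groups was not tested. Mean Cdh8 in Mb was 4.93 FPKM in WT and 1.49, 1.93 and 1.24 in TKO_Ex, DKO_Ex and DKO_CD. Mean Cdh11 in Mb was 21.9 FPKM in WT and 15.9, 18.2 and 22.1 in the same groups. WT Mb number 5 had En1, a defining midbrain gene, at 3.57 FPKM where the WT Mb median was 41.8. In the WT comparison of tissues all 8 forebrain markers were lower in Mb and 5 of 8 midbrain markers were higher.

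All 8 stage genes were strongly expressed. Hmga1, an architectural chromatin protein, was the highest, at 564 to 982 FPKM over the 32 libraries, and 0.319% of all identifiers had a higher mean. Its relative Hmga2 followed with 119 to 228 FPKM and Lin28a with 79.1 to 213 FPKM, and then came Igf2bp2 (67.3 to 104 FPKM), Igf2bp1 (63.3 to 94.8 FPKM) and Igf2bp3 (62.8 to 83.1 FPKM). Lin28b was at 27.5 to 55 FPKM, and Trim71, an E3 ubiquitin ligase that also binds RNA, was the lowest at 14.6 to 26.7 FPKM, which still left only 9.17% of identifiers with a higher mean.

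The order Hmga1, Hmga2, Lin28a, Igf2bp2, Igf2bp1, Igf2bp3, Lin28b, Trim71 held for the group means in all groups except DKO_CD Mb, where Igf2bp2 (86.5 FPKM) stood just above Lin28a (85 FPKM) with overlapping ranges. In WT, the ranges of Hmga2 and Lin28a overlapped in both tissues, as did those of Igf2bp2 and Igf2bp1 and those of Igf2bp1 and Igf2bp3. In WT Mb the same was true of Lin28a and Igf2bp2. Overlapping ranges do not show equal levels, since both genes of a neighbouring pair were measured in the same libraries. Igf2bp2 was above Igf2bp1 in each WT Fb library, and in WT Mb the order was mixed. Differences between genes were not tested. Hmga1, Lin28b and Trim71 were each clear of their neighbours in all groups.

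The genes differed in how much they varied between embryos of the same group. Lin28a varied most in WT, with a coefficient of variation of 22.5% in Fb and 26% in Mb, and its highest WT Mb library had 2.06 times the level of the lowest. Igf2bp3 varied least in WT, at 5.94% in Fb and 5.92% in Mb. The counting error of a Lin28a value was 3.94% at most.

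**Figure D2:**
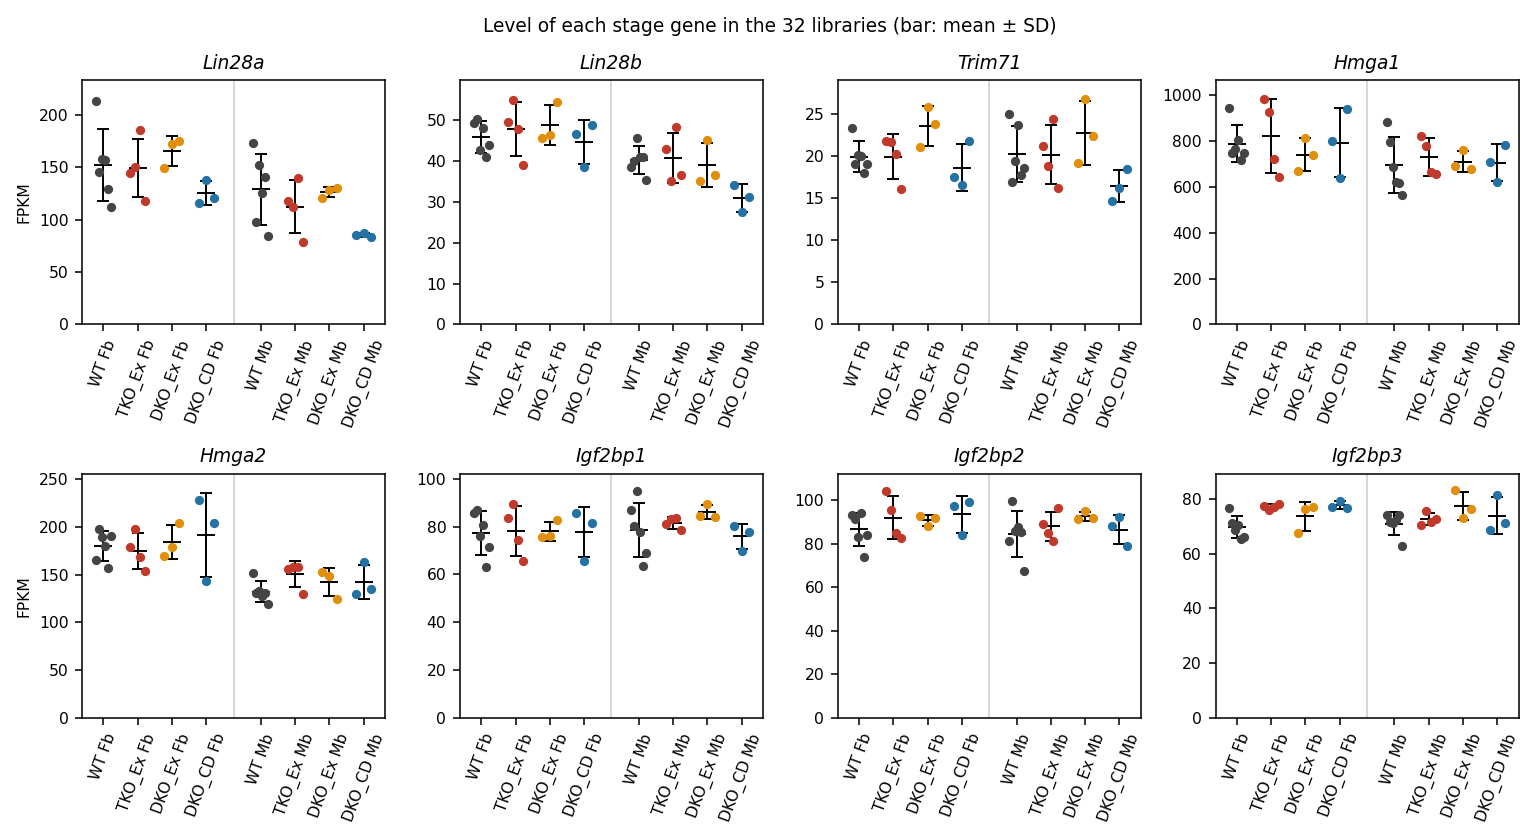
FPKM of each stage gene in each of the 32 libraries (points) by group, with the group mean and SD (bars), forebrain left and midbrain right of the grey line. WT libraries of Lin28a spread widely, from 84.1 to 173 FPKM in Mb, and the 3 DKO_CD Mb libraries lie between 83.3 and 86.9 FPKM.

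The first question was whether the stage genes differed between mutant and WT embryos. Over 6 comparisons with WT and 8 genes, none of 48 values passed an adjusted p of 0.05 in limma (Benjamini-Hochberg over all genes tested), and the smallest adjusted p was 0.512. Few genes of any kind passed in these comparisons: 0.0898% in TKO_Ex Mb, 0.0903% in DKO_Ex Mb, 0.0375% in DKO_CD Mb, 0.0603% in TKO_Ex Fb, 0.0759% in DKO_Ex Fb and 0.0378% in DKO_CD Fb, so a count of 0 members is what the background share alone would give. These counts rest on single libraries, since 12 genes passed in TKO_Ex Mb, 52 without WT Mb number 1 and 4 without TKO_Ex Mb number 1, but the count of stage genes stayed at 0 with any 1 library left out. Before adjustment, 2 of the 48 values had a p under 0.05, Lin28a and Lin28b in DKO_CD Mb, where 6.69% of all genes did. The corresponding shares were 8.38% in TKO_Ex Mb, 5.46% in DKO_Ex Mb, 8.66% in TKO_Ex Fb, 7.01% in DKO_Ex Fb and 8.44% in DKO_CD Fb. The log2 fold changes, on the log2(FPKM + 1) scale throughout, ran from −0.55 to 0.23, with 32 above and 14 below 0. Those of Trim71 in TKO_Ex Fb and Igf2bp1 in DKO_CD Fb rounded to 0.00 and are in neither count. Outside DKO_CD Mb the lowest log2 fold change was −0.26.

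The intervals say more than the p-values about what the data could show. The 95% confidence interval lay within a 2-fold change of WT for 47 of 48 values, the exception being Lin28a in DKO_CD Mb. A 1.5-fold change lay outside the interval for 43 of 48, 20 of 24 in Mb and 23 of 24 in Fb. A change of 1.3-fold lay outside it for 36 of 48, 16 in Mb and 20 in Fb.

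**Figure D3:**
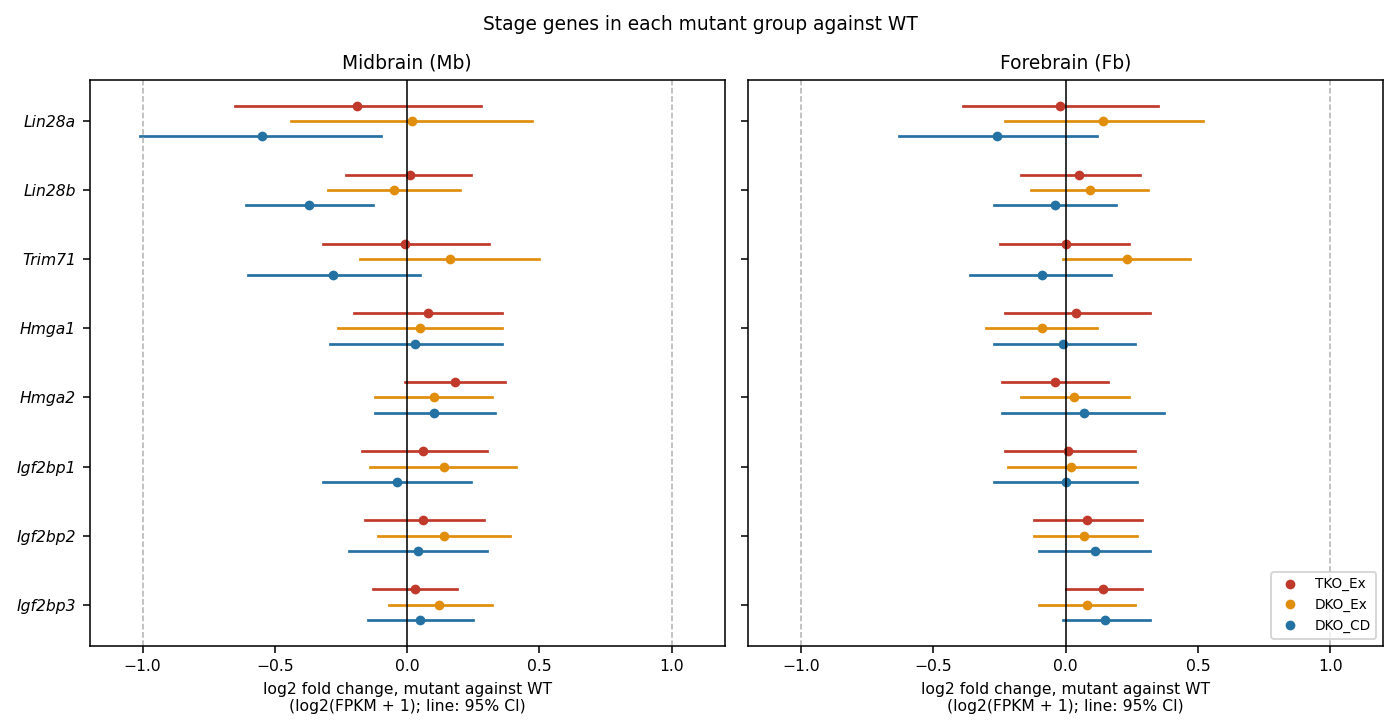
Log2 fold change of each stage gene in each mutant group against WT of the same tissue (points, log2(FPKM + 1) scale) with 95% confidence intervals (lines), and dashed lines at a 2-fold change. The intervals of Lin28a and Lin28b in DKO_CD Mb lie below 0, and the former alone reaches past the 2-fold line.

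Lin28a, the let-7 blocker that acts mainly in the cytoplasm, gave the lowest of these estimates. Its WT Mb libraries ran from 84.1 FPKM through a median of 133 to 173. The DKO_CD Mb libraries had 84.9, 86.9 and 83.3 FPKM, close together and at the level of the lowest WT library, so that the groups overlapped only there. The log2 fold change was −0.55 (SE 0.21, 95% interval −1.01 to −0.10, adjusted p = 0.683 in limma), a level 31.8% lower that did not pass the test.

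In TKO_Ex Mb, Lin28a was at 118, 112, 140 and 79.1 FPKM, and in DKO_Ex Mb at 121, 128 and 130 FPKM. Both sets lay inside or just below the WT range. The TKO_Ex difference was −0.19 (interval −0.65 to 0.28, adjusted p = 0.875 in limma), and without the library labelled TKO_Ex number 3, with Cdh6 at the WT level, it was −0.30 (adjusted p = 0.826). It depended on single libraries, at −0.03 without TKO_Ex Mb number 4, −0.09 without WT Mb number 1 and −0.30 without WT Mb number 6.

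Forebrain Lin28a was at 112 to 213 FPKM in WT with a median of 151. TKO_Ex Fb had 144, 150, 185 and 118 FPKM, DKO_Ex Fb 149, 172 and 175, and DKO_CD Fb 116, 138 and 121. All mutant Fb libraries lay within the WT range. DKO_CD was again the lowest group, at −0.26 (interval −0.63 to 0.12, adjusted p = 0.711 in limma), with WT itself spread over more than that.

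Lin28b, the second let-7 blocker, was the only gene whose libraries were separate from WT in any of the 48 comparisons. Its WT Mb libraries ran from 35.3 through 40.5 to 45.7 FPKM, and those of DKO_CD Mb were at 34.2, 27.5 and 31.2. The 3 mutant libraries lay below all 6 WT libraries, a separation that 1.14% of all genes also showed in that direction. The log2 fold change was −0.37 (SE 0.11, interval −0.61 to −0.13, adjusted p = 0.512 in limma), a level 22.6% lower that did not pass the test.

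TKO_Ex Mb libraries of Lin28b were at 42.9, 35.1, 48.3 and 36.5 FPKM and those of DKO_Ex Mb at 35.2, 45.2 and 36.5, around the WT values. The DKO_Ex difference was −0.05 (adjusted p = 0.981 in limma). In Fb the WT libraries ran from 41 through 46 to 50.2 FPKM, against 49.6, 55, 47.9 and 39 in TKO_Ex, 45.7, 46.3 and 54.5 in DKO_Ex, and 46.7, 38.5 and 48.7 in DKO_CD. No Fb group was set apart. The lower Lin28b of DKO_CD was thus seen in Mb, and the difference between its Mb and Fb effects was −0.33 (interval −0.63 to −0.03, adjusted p = 0.99 in limma), which did not pass.

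Without WT Mb number 5, the library with low En1, the DKO_CD Mb values were −0.52 for Lin28a (adjusted p = 0.816 in limma) and −0.36 for Lin28b (adjusted p = 0.664).

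Other cell types moved beside the Lin28 values in DKO_CD Mb. All 8 measured mesenchyme markers were above WT with a median log2 fold change of 0.62. Of these, 6 had an unadjusted p under 0.05, where 6.69% of all genes did in either direction, and none passed after adjustment. Their summed level was 187 to 273 FPKM against 104 to 211 in WT Mb. The 5 surface ectoderm markers tested had a median of 0.40, with sums of 24.3, 61 and 79.5 FPKM against 26.8 to 41.8 in WT. Neuron genes were at a median of −0.11. Primitive red cell markers were below WT in 6 of 6 (median −0.35) and endothelium markers in 5 of 7 (median −0.16), none at an unadjusted p under 0.05. The part of these cells in the Lin28a and Lin28b values was not tested, and in dissected tissue fewer cells of a type and less RNA per cell cannot be told apart.

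Trim71 was lowest in the same group. WT Mb libraries ran from 16.9 through 18.9 to 25 FPKM and DKO_CD Mb libraries were at 14.6, 16.2 and 18.4, with overlap. The log2 fold change was −0.28 (interval −0.60 to 0.05, adjusted p = 0.812 in limma). DKO_Ex went the other way without passing: Mb libraries at 19.1, 26.7 and 22.4 FPKM gave 0.16 (interval −0.18 to 0.50, and 0.05 to 0.28 with 1 library left out), and Fb libraries at 21, 25.8 and 23.8 FPKM against 17.9 to 23.3 in WT Fb gave 0.23 (interval −0.01 to 0.47, adjusted p = 0.714 in limma).

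Hmga2, the chromatin protein most closely tied to let-7, showed no such low values in DKO_CD Mb. Its libraries there had 130, 163 and 135 FPKM, against 119 through 131 to 152 in WT Mb, and the log2 fold change was 0.10 (adjusted p = 0.917 in limma). TKO_Ex Mb had 156, 158, 158 and 130 FPKM, 3 of 4 above the highest WT library, for a difference of 0.18 (interval −0.01 to 0.37, adjusted p = 0.613 in limma), or 0.16 (adjusted p = 0.774) without the library labelled number 3. In TKO_Ex Fb it was at 179, 198, 168 and 154 FPKM, within or just under the WT range of 157 to 198, and the difference was −0.04. The TKO_Ex effect was larger in Mb than in Fb by 0.23 (interval −0.03 to 0.49), and its adjusted p of 0.798 was the smallest of all 24 such differences between tissues. None of the 24 passed, and 0.0149%, 0% and 0.00746% of all genes did so for TKO_Ex, DKO_Ex and DKO_CD. Hmga1 stayed between 564 and 883 FPKM in WT Mb and between 621 and 819 in all mutant Mb libraries, and its Fb difference in DKO_Ex was −0.09.

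The Igf2bp genes, which code for mRNA-binding proteins, had log2 fold changes from −0.04 to 0.15 over the 6 comparisons, and those of Hmga1 ran from −0.09 to 0.08. Igf2bp3 was at 65.4 to 76.8 FPKM in WT Fb, at 77.2, 76, 77 and 78.1 in TKO_Ex Fb and at 76.9, 79.3 and 76.7 in DKO_CD Fb. These mutant libraries sat at or above the top of the WT range with an overlap at 1 WT library. The differences were 0.14 for TKO_Ex (interval 0.00 to 0.29, adjusted p = 0.581 in limma) and 0.15 for DKO_CD (interval −0.01 to 0.32, adjusted p = 0.6). Igf2bp1 ran from 63.7 to 94.8 FPKM in WT Mb and from 69.8 to 89.5 FPKM in mutant Mb, and Igf2bp2 from 67.3 to 99.4 FPKM and from 79.1 to 96.4 FPKM, so that mutant libraries of both lay inside the WT range.

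Averaged over the 3 mutant groups against WT, which does not depend on which DKO label is right, none of the 8 genes passed in either tissue, where 0.112% of all genes passed in Mb and 0.226% in Fb. In Mb the lowest were Lin28a at −0.24 (interval −0.55 to 0.07, adjusted p = 0.758 in limma) and Lin28b at −0.14 (interval −0.32 to 0.05), and the highest was Hmga2 at 0.13 (interval −0.03 to 0.29). Hmga1, Igf2bp1, Igf2bp2, Igf2bp3 and Trim71 lay at 0.05, 0.05, 0.08, 0.07 and −0.04. The median of the 8 was 0.05, and that of all genes tested was 0.02.

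In Fb the same average gave −0.04 for Lin28a, 0.03 for Lin28b, −0.02 for Hmga1, 0.02 for Hmga2, 0.01 for Igf2bp1, 0.09 for Igf2bp2 and 0.04 for Trim71. Igf2bp3 stood highest at 0.13 (interval 0.02 to 0.23, adjusted p = 0.481 in limma), 9.06% above WT, and did not pass. The median was 0.03 against 0.02 for all genes tested. Mesenchyme markers were lower in these Fb libraries, 5 of 8 at an unadjusted p under 0.05 (9.02% of all genes) with a median of −0.39, and their part in the Fb values was not tested.

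The genes around the circuit gave no call in any comparison with WT. In the averaged Mb comparison, 19 of 20 let-7 biogenesis and silencing genes were tested and had a median of −0.02, from Tnrc6a at −0.16, a silencing cofactor of Argonaute, and Msi1 at −0.15, an RNA-binding protein of neural progenitors, to Zcchc11 at 0.15 and Zcchc6 at 0.17, the terminal uridylyltransferases that act with Lin28 on the let-7 precursor. In Fb the list had a median of 0.04, with Zcchc11 at 0.36 (SE 0.10, adjusted p = 0.211 in limma), Dgcr8 of the Microprocessor at 0.25 and the precursor-binding proteins Hnrnpa1 and Syncrip at −0.09 and −0.10.

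The 18 other known let-7 targets had medians of 0.06 in Mb and 0.07 in Fb, and in Fb 5 of them were above WT at an unadjusted p under 0.05, where 9.02% of all genes had such a p in either direction. Ccnd1, a cyclin of the G1 phase, stood at 0.28 in Mb (SE 0.06, adjusted p = 0.144 in limma) and 0.31 in Fb (SE 0.07, adjusted p = 0.15). In Mb Mycn was at 0.21 and Nr6a1 at −0.21, and in Fb Arid3b was at 0.36, Cdk6 at −0.13 and Myc at −0.27. The 6 transcripts known to be bound by Igf2bp proteins had medians of 0.09 and 0.02, with Igf2 at 0.17 and H19 at −0.10 in Mb, and Actb at 0.06 in Fb. Among early embryo genes 4 of 10 reached the minimum level, with medians of −0.03 and 0.06. Cldn6, a claudin of early epithelia, was at 0.52 in both tissues (adjusted p = 0.777 in Mb and 0.563 in Fb), while Sall4, a pluripotency factor, was at 0.00 and −0.04.

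Genes that rise later in development were listed as a counterpart. The 7 of 11 later progenitor genes tested had medians of 0.12 in Mb and 0.14 in Fb. Sox9, a factor of later glial-competent progenitors, was at 0.50 in Mb (adjusted p = 0.463 in limma) and −0.09 in Fb, and Ttyh1 was at 0.51 in Mb (adjusted p = 0.671). Neuron genes had a median of −0.15 in Mb over 15 genes, with the microtubule protein genes Mapt at −0.58 and Map2 at −0.40. In Fb 11 were tested, with a median of 0.36 and the proneural factor Neurog1 at 0.73 (adjusted p = 0.61 in limma). In DKO_CD Fb all 11 were above 0 with a median of 0.68, beside the Lin28a value of −0.26 in that group. Of these, 6 had an unadjusted p under 0.05, where 8.44% of all genes did in either direction, and none passed after adjustment. Within DKO_CD Fb, library number 2 had both the highest summed neuron genes (79.8 FPKM) and the highest Lin28a (138 FPKM). In TKO_Ex Fb all 11 were above 0 too (median 0.46), with Lin28a at −0.02, and in DKO_Ex Fb 4 of 9 were.

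The second question was whether these genes differed between Mb and Fb at this stage. In WT, 1 of the 8 genes passed, where 8.26% of all genes did. Hmga2 was at 119 to 152 FPKM in Mb (median 131) and at 157 to 198 FPKM in Fb (median 184). No Mb library reached the lowest Fb library, as was so for 2.23% of genes in that direction. The log2 fold change was −0.44 (SE 0.07, interval −0.60 to −0.28, adjusted p = 0.00187 in limma), and it was −0.44 (adjusted p = 0.00522) without WT Mb number 5.

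Lin28a (−0.25, interval −0.65 to 0.14), Lin28b (−0.18, interval −0.35 to −0.01, adjusted p = 0.195) and Hmga1 (−0.19, adjusted p = 0.346) were lower in WT Mb by limma's estimate without passing. Igf2bp1 (0.02), Igf2bp2 (−0.04), Igf2bp3 (0.02) and Trim71 (0.01) were near 0. The median of the 8 was −0.11 and that of all genes 0.00.

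Taking all 32 libraries, with the difference averaged over the 4 groups, Hmga2, Lin28b and Lin28a were lower in Mb, 3 of 8 genes where 15.1% of all genes passed. The log2 fold change was −0.36 for Hmga2 (SE 0.06, interval −0.48 to −0.23, adjusted p = 6.01e-05 in limma). For Lin28b it was −0.31 (SE 0.06, interval −0.43 to −0.19, adjusted p = 0.000293) and for Lin28a −0.40 (SE 0.10, interval −0.60 to −0.20, adjusted p = 0.00425). All 3 means were lower in Mb in 4 of 4 groups. Without the libraries labelled TKO_Ex number 3 the values were −0.37, −0.33 and −0.40, and without WT Mb number 5 they were −0.36, −0.31 and −0.41, all past the threshold.

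The Mb level of Lin28a was 0.85 of that in Fb in WT, 0.75 in TKO_Ex, 0.76 in DKO_Ex and 0.68 in DKO_CD. For Lin28b the ratios in the same order were 0.88, 0.85, 0.80 and 0.69, and for Hmga2 they were 0.74, 0.86, 0.77 and 0.74. Hmga1 was also lower in Mb in 4 of 4 groups, at −0.14 (interval −0.29 to 0.01, adjusted p = 0.229 in limma), and it passed when the replicate number was kept as a block (adjusted p = 0.0236).

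The Igf2bp genes and Trim71 did not share this difference at these intervals. Igf2bp1 was at 0.05, Igf2bp2 at −0.04, Trim71 at −0.05, and Igf2bp3 at −0.02 with an interval of −0.09 to 0.05. The direction was mixed, with Mb below Fb in 1 of 4 groups for Igf2bp1, 3 for Igf2bp2, 2 for Igf2bp3 and 2 for Trim71. Igf2bp1 and Trim71 carry as many let-7 seed complements as Lin28b and Hmga2 do. No microRNA was measured, and a relation between these matches and the tissue difference was not tested.

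**Figure D4:**
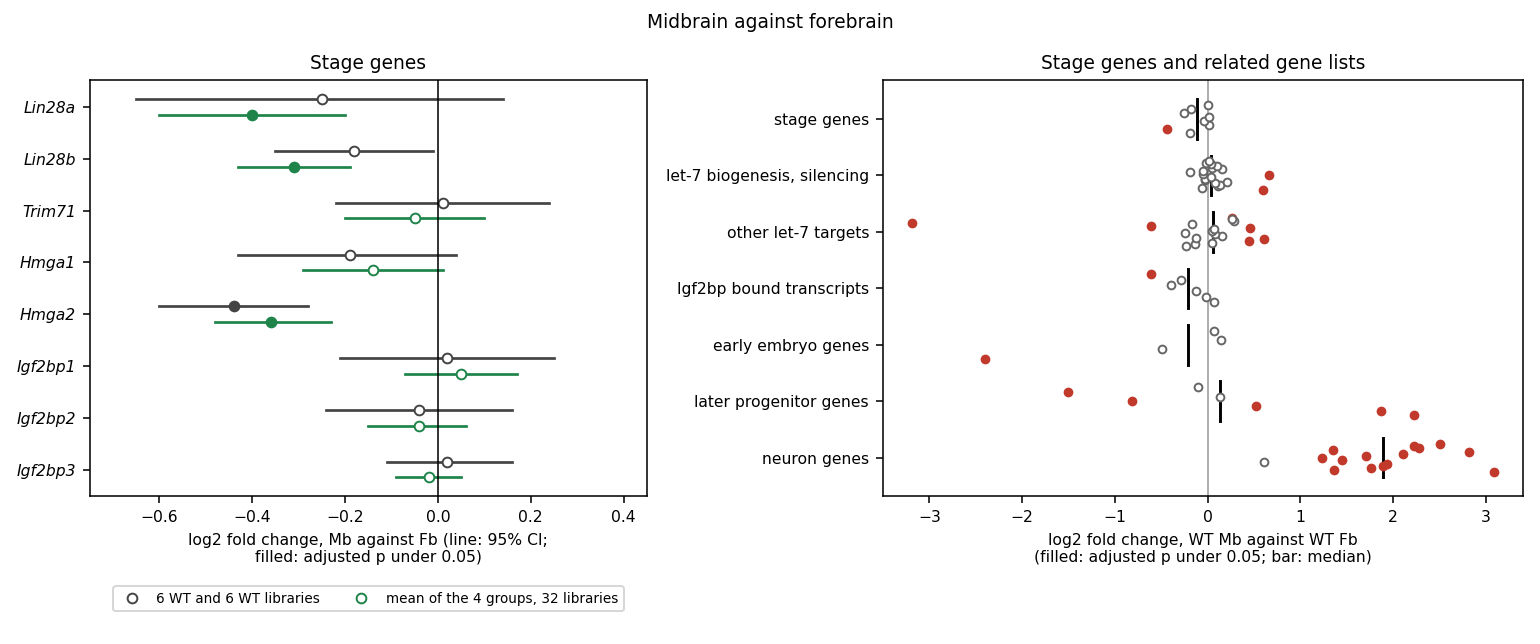
Left, log2 fold change of each stage gene between Mb and Fb with 95% confidence intervals, for WT (grey) and averaged over the 4 groups (green), filled where the adjusted p is under 0.05. Right, the same for each gene of the related lists in WT, with the median as a bar: neuron genes lie far to the right (median 1.89), stage genes close to 0 (median −0.11).

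Some other lists differed more between the tissues. In WT, 14 of 15 neuron genes were higher in Mb, with a median of 1.89, among them Stmn2, a growth cone protein, at 2.51. Later progenitor genes were called in both directions, with Fabp7 at 2.23, Hes5 at 1.87 and Pea15a at 0.52 and with Sox9 at −1.51 and Ptprz1 at −0.82. Msi1 (0.66) and Ago1 (0.60), an Argonaute, were higher in Mb, while Myc (−0.61) and Cldn6 (−2.40) were lower. Of the let-7 targets Ccnd1 (0.45), Ccnd2 (0.61) and Plagl2 (0.26) were among those higher in Mb and Nr2e1 (−3.19) was lower, and the median of that list was 0.06. The let-7 biogenesis list had a median of 0.04, and the Igf2bp bound transcripts and the early embryo genes each had one of −0.21. Surface ectoderm markers were lower in Mb in 6 of 6, with a median of −1.22, and mesenchyme markers in 5 of 8 with 1 higher. The part of these cells in the Hmga2 difference was not tested.

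Within a group, libraries often deviated in several stage genes at once. TKO_Ex Fb number 4 was the lowest of its group in 7 of 8 genes and had the highest summed neuron genes of its group, 87.2 FPKM. The same library had the lowest forebrain, mesenchyme and endothelium sums of its group (129, 136 and 23.2 FPKM, with medians of 214, 155 and 34.4) and the highest surface ectoderm sum (241 FPKM, median 140). TKO_Ex Mb number 4 was lowest in 5 but highest in Igf2bp2, and had the highest neuron sum, 231 FPKM. DKO_CD Fb number 2 was lowest in 6 but the highest of its group in Lin28a and Igf2bp3. Its neuron sum was 79.8 FPKM, the highest of 3. DKO_CD Fb number 2 also had the lowest forebrain, mesenchyme and endothelium sums of its group (134, 102 and 20.1 FPKM) and the highest midbrain and surface ectoderm sums (115 and 221 FPKM). The part of these tissues in the stage gene values was not tested. WT Mb number 1 was the highest in 4 stage genes and had the lowest neuron sum of its group, 119 FPKM.

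Other libraries did not follow that pattern. WT Fb number 5 was lowest in 7 stage genes with the lowest neuron sum of its group, 27.6 FPKM, and WT Fb number 1 was highest in 4 with the highest neuron sum, 42.9 FPKM. WT Mb number 6 was lowest in 6 with a neuron sum of 189 FPKM, the third of 6. DKO_Ex Fb number 1 was lowest in 7. WT Fb number 5, WT Mb number 6 and DKO_Ex Fb number 1 had median-of-ratios scaling factors of 0.923, 0.912 and 0.946. No other library had a factor so low, so their values were low over genes at large and not in stage genes alone. The ranks given here are of unscaled FPKM. These are descriptions of single libraries, and no relation was tested.

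**Figure D5:**
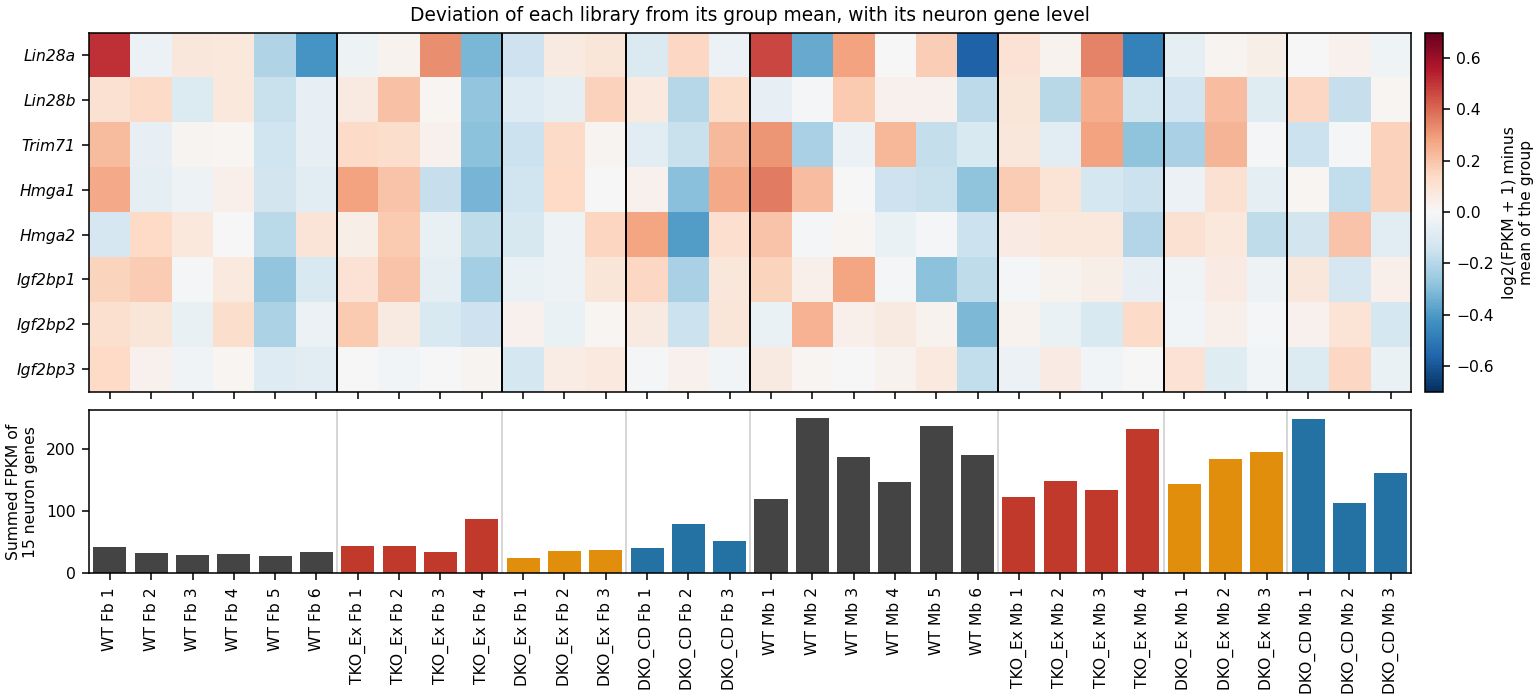
Top, deviation of each library from its group mean for each stage gene, on the log2(FPKM + 1) scale, red above and blue below. Bottom, summed FPKM of 15 neuron genes in the same libraries. TKO_Ex Fb number 4 is blue in 7 of 8 genes and has the tallest neuron bar of its group, whereas WT Fb number 5 is blue throughout with the shortest.

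The genes whose levels followed a stage gene most closely over the 32 libraries differed between stage genes. Out of 13440 genes, Lin28a was most like Slc16a1, Klhl21 and Nhp2 (Pearson r of 0.80, 0.79 and 0.78), Lin28b most like Ddah1, AU020206 and Pdzd4 (0.83, 0.81 and 0.81), Hmga2 most like Fzd2, Lima1 and Pkdcc (0.88, 0.87 and 0.87) and Igf2bp1 most like Hcfc1, Elovl5 and Fads1 (0.78, 0.77 and 0.75). The 32 points share tissue, genotype and dissection, and these values are descriptions.

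Neighbouring and copied genes limit some of the values. Lin28a overlaps Gm13061, Hmga1 overlaps AI413582, Hmga2 overlaps 1700006J14Rik and 9230105E05Rik, Igf2bp1 overlaps Gm29202, Igf2bp3 overlaps Malsu1 and Gm18010, and Trim71 overlaps C130032M10Rik, all on the opposite strand in libraries that keep strand. The microRNA genes Mir763 and Mir3063 lie within Hmga2 and Igf2bp1 on the same strand, while Lin28b and Igf2bp2 overlap no annotated gene. Hmga1b, a near copy of Hmga1, had 266 FPKM in WT Fb and 233 FPKM in WT Mb, and reads may be split between the copies.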

How the data were processed

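Total RNA of Fb and Mb was made into directional libraries and sequenced on HiSeq instruments. Per the labels and the methods of the study, the authors aligned reads to GRCm38 with TopHat2 and deposited 1 table of FPKM per library, computed with Cufflinks (versions not given in the sources used here). Their HTSeq counts and DESeq2 test were not used here, and no count test was run because FPKM are not counts. FPKM of 65 repeated identifiers were summed, and 48218 of 48576 identifiers matched GENCODE M21. Groups were taken from the column headings.

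Values were tested as log2(FPKM + 1) with limma 3.58.1 (eBayes with trend) in R 4.3.3, keeping genes whose mean over the fitted libraries reached 1 FPKM, with Benjamini-Hochberg adjustment over all genes tested and a threshold of 0.05. Scripts ran in Python 3.11.15 and were tested on simulated data. The 8 genes and all other lists were chosen with earlier results of these data known. Of the other lists, genes were named when called, or as the 2 highest and 2 lowest of the averaged comparison, and likeness was given for 4 stage genes. Some genes that the rule would name are not reported here. Tissue calls of lists are given by count with examples. Depth was estimated from the steps between low FPKM values in 771 genes with a single transcript of at least 4000 bases, of which 86.4% to 94.3% per library lay on whole steps, and counting errors cover counting only. Other pseudocounts, filters, scaling, trend, groupings by record, blocks by replicate number and left-out libraries were tried. Matches in 3′ untranslated regions used the longest annotated one per gene. Sequences of microRNAs come from RefSeq.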

Additional observations from a re-analysis of the deposited data

Results flagged for a closer look

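In 32 checks of a gene within a group of 4 to 6 libraries, 2 had a single library far from the rest, and chance flags about 1 in 20 groups. Hmga2 in TKO_Ex Mb number 4 was at 130 FPKM while the other 3 libraries lay between 156 and 158 FPKM, the gap to the nearest being 0.92 of the whole range (limit 0.829). Igf2bp3 in WT Mb number 6 was at 62.8 FPKM with the other 5 between 71.1 and 74.2 FPKM, a gap of 0.73 of the range (limit 0.625). Both libraries were also the lowest of their group in several other stage genes. The check used unscaled FPKM. WT Mb number 6 had the lowest median-of-ratios scaling factor of the 32 libraries, 0.912, so its values were low over genes at large. Whether its flag holds after scaling was not tested.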

How the results depend on the processing

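The number of stage genes called was the same in 286 of 287 alternative runs, the exception being Mb against Fb over all groups with the replicate block (4 against 3), and 1098 of 1142 alternative values of single genes kept direction and side of the threshold. Hmga2 in WT Mb against Fb stayed between −0.48 and −0.41 with any 1 library left out (adjusted p 0.000752 to 0.00629, limma). Over all groups Lin28a kept an adjusted p of 0.00167 to 0.0103, Lin28b of 7.65e-05 to 0.00102 and Hmga2 of 1.5e-06 to 0.000229. Lin28b in DKO_CD Mb ranged from −0.44 to −0.29 (adjusted p 0.46 to 0.863) and Lin28a from −0.66 to −0.46.

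Grouping the DKO libraries by record exchanged the DKO values and so turned Trim71 (−0.28 in DKO_Ex Mb, −0.09 in DKO_Ex Fb, 0.16 in DKO_CD Mb) and Lin28a (0.02 in DKO_CD Mb, 0.14 in DKO_CD Fb). With the replicate number as a block, the averaged mutant values turned for Hmga1 (−0.10) and Igf2bp1 (−0.08) in Mb and for Lin28b (−0.05), Hmga2 (−0.03), Igf2bp1 (−0.11) and Trim71 (−0.04) in Fb. In the same block Hmga1 in Mb against Fb over all groups passed (−0.14, adjusted p = 0.0236). Same-numbered libraries of Fb and Mb correlated at 0.01 to 0.14, over 0.1 in 4 of 16. Since not every pair passed 0.1, the numbers were not counted as pairs, and the main tissue tests treat Fb and Mb libraries as unpaired. Yet 14 of 16 correlated best with their own number, a hint from the data that same-numbered libraries belong together. Same-numbered mutant and WT libraries of a tissue correlated at −0.09 to 0.05. In the comparisons with WT the block joined such libraries, which came from different matings, so it stands for no known unit there. The block also lowered the number of all genes called, from 12 to 0 in TKO_Ex Mb, 12 to 1 in DKO_Ex Mb, 5 to 1 in DKO_CD Mb, 8 to 0 in TKO_Ex Fb, 10 to 2 in DKO_Ex Fb, 15 to 7 in the averaged Mb and 30 to 9 in the averaged Fb comparison. With no filter these counts were 6 in TKO_Ex Mb, 5 in TKO_Ex Fb, 15 in DKO_CD Fb (5 in the main setting) and 16 in averaged Fb, and with no trend 3 in TKO_Ex Mb. A fit of all 4 groups gave 9 in DKO_CD Mb, a pseudocount of 5 gave 9 in DKO_CD Fb and scaling gave 8 there. Median-of-ratios scaling (factors 0.912 to 1.05) left Igf2bp1 in Fb at 0.00 with its sign turned.

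With 1 library left out the number of all genes called was 4 to 52 in TKO_Ex Mb (52 without WT Mb number 1), 3 to 14 in DKO_Ex Mb, 3 to 10 in DKO_CD Mb (10 without WT Mb number 1), 0 to 8 in TKO_Ex Fb, 6 to 14 in DKO_Ex Fb, 2 to 10 in DKO_CD Fb, 9 to 19 in averaged Mb and 12 to 30 in averaged Fb. Lin28a in TKO_Ex Mb ran from −0.30 to −0.03 and in DKO_CD Fb from −0.34 to −0.16, Trim71 in DKO_Ex Mb from 0.05 to 0.28, Hmga2 in DKO_CD Mb from 0.01 to 0.17 and Hmga1 in DKO_Ex Fb from −0.16 to −0.02. Leaving out 1 library turned averaged values that were near 0: in Fb Lin28a (−0.13 to 0.06), Hmga1 (−0.06 to 0.04), Hmga2 (−0.03 to 0.08) and Igf2bp1 (−0.04 to 0.05), and in Mb Hmga1 (0.00 to 0.13), Igf2bp1 (0.00 to 0.11) and Trim71 (−0.09 to 0.02). It also turned Hmga2 in TKO_Ex Fb (−0.11 to 0.01), Lin28b in DKO_Ex Mb (−0.16 to 0.02), and in WT Mb against Fb Igf2bp1 (−0.04 to 0.08), Igf2bp2 (−0.09 to 0.02) and Trim71 (−0.05 to 0.06). The cause was not tested. Groups of 3 and a depth of 1.97 to 3.25 M fragments limit the precision.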
